A study of Mus musculus with 7 samples.

Results

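The regions described here are 1482 peaks of H3K27ac in mouse dermal fibroblasts that lay away from promoters, had no H3K27ac peak in chondrocytes, and nevertheless overlapped a chondrocyte peak of H3K4me2. They were chosen from the 19454 fibroblast H3K27ac peaks on chromosomes 1 to 19 and X, of which they made up 7.62%. A peak was kept when no transcription start site (TSS) of a protein-coding gene lay within 1 kb of it, when it overlapped none of 3 chondrocyte H3K27ac peak lists, and when it shared at least 1 bp with a chondrocyte H3K4me2 peak. Presence in fibroblasts, absence from these 3 lists and presence of H3K4me2 were thus fixed by the choice and are not findings.

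H3K27ac is an acetylation of histone H3 that marks active enhancers and promoters. H3K4me2 is a methylation of the same histone found at promoters and enhancers whether they are active or not, and an enhancer with H3K4 methylation and no H3K27ac is often called primed or poised. Chondrocytes and dermal fibroblasts both derive from mesenchyme, and an enhancer used in one of them may have been opened in a shared precursor.

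ChIP-Seq peak lists of 6 of the 7 samples were analysed, and the input library was not analysed here. Primary chondrocytes came from rib cartilage of newborn mice and were used after few passages, and gave 2 libraries of H3K27ac and 1 of H3K4me2. Primary dermal fibroblasts came from digested dorsal skin of newborns and gave 1 of H3K27ac. Rib chondrocytes of WT and of E160Δ/Δ E308Δ/Δ animals, the latter without 2 enhancers upstream of Sox9 on either allele, gave 1 H3K27ac library each. The deletions were made by CRISPR/Cas9 in C57BL/6J embryos in successive rounds. H3K27ac of chondrocytes was the only measurement with replicates, neither culture was sorted, and the number of animals behind each library is not given in the sources used here. Depth is unknown because read numbers are not part of the lists, no p-value was computed, and the 95% intervals cover counting error over peaks or genes only.

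The lists held 25580 (chondrocyte replicate 1), 33369 (WT), 25213 (deletion) and 66355 (H3K4me2) peaks on these chromosomes, and chondrocyte replicate 2 was on GRCm38 whereas the other lists were on mm9. By promoter peaks the cell labels held for cartilage genes: of 32 chondrocyte genes, 3 had a fibroblast promoter peak, and 17 (replicate 1), 22 (WT) and 20 (deletion) had one in chondrocytes. Fibroblast matrix and surface genes did not separate the cells. Of 50 promoters, 37 were marked in fibroblasts and 23, 39 and 36 in the same chondrocyte lists. Col1a1, Col1a2, Col3a1 and Postn were among the 13 without a fibroblast promoter peak. A promoter lay within 1 kb of the annotated gene-level TSS, so peaks at other starts or in the gene body were not counted. The promoters of Ctnnb1, Nfib and Foxp1, for example, were marked in replicate 2 and in no list on mm9. The paper reports fibroblast peaks at Col1a1. Of the markers of other cells of the skin, 0 of 16 keratinocyte, 0 of 18 skeletal muscle, 1 of 14 endothelial, 1 of 13 immune, 3 of 12 pericyte and 4 of 16 melanocyte and Schwann cell promoters were marked in fibroblasts. Of 14 adipocyte promoters 9 were marked there, and 7, 8 and 7 in the chondrocyte lists.

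The central 300 bases of 6 of these peaks are shown first, because they lead the group by either mark and differ in CpG, a feature of the group described below. They are the plus strand of mm9 with every CpG in capitals. The first 3 have the highest fibroblast H3K27ac scores, the caller's measure of peak strength within a list, and lie at chr1:93654193-93654492 upstream of Twist2, chr1:123074845-123075144 downstream of Insig2 and chr9:91276192-91276491 in an intron of Zic4 near Zic1.
Twist2: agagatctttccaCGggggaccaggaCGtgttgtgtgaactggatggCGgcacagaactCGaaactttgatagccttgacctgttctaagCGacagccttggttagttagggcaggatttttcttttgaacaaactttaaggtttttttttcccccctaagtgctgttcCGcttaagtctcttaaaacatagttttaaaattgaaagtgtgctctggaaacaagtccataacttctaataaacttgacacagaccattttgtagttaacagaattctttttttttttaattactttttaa
Insig2: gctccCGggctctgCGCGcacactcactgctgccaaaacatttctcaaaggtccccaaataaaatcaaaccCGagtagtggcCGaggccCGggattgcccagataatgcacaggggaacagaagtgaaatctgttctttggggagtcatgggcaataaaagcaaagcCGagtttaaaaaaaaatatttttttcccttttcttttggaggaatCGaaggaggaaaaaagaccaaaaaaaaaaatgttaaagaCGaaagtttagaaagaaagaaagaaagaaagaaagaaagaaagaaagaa
Zic1: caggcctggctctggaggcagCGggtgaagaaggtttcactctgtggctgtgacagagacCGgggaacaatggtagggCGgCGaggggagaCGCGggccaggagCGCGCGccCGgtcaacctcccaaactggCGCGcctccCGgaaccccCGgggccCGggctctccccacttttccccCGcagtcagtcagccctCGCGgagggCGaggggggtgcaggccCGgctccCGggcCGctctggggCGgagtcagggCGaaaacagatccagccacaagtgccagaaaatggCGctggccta
The next 3 have the strongest chondrocyte H3K4me2 peaks and lie at chr13:21252320-21252619 in intergenic sequence nearest to Olfr1368, chr10:62348952-62349251 in an intron of Tet1 and chr3:134293010-134293309 in a gene that codes for no protein, nearest to Tacr3.
Olfr1368: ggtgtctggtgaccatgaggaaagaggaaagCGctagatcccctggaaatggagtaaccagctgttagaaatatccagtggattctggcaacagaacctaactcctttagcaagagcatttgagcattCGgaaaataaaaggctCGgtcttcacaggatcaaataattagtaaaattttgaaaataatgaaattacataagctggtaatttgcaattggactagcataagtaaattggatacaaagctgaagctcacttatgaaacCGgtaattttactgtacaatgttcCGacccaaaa
Tet1: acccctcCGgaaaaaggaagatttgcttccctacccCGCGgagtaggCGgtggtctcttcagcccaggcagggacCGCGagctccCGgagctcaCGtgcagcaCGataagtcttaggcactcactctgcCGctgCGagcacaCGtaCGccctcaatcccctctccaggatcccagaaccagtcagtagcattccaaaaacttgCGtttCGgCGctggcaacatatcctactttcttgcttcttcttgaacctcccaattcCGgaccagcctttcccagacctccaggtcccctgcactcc
Tacr3: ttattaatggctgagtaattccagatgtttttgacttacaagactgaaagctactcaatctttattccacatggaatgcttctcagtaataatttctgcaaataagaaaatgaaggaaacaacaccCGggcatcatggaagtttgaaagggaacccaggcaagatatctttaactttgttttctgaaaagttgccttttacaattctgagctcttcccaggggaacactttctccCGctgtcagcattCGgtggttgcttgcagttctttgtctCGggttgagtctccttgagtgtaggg
The Zic1 window held 25 CpG and 69.7% G and C, and the Tet1 window 17 CpG and 58.0%. The other windows held 6 (Twist2), 9 (Insig2), 5 (Olfr1368) and 4 (Tacr3) CpG.

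Of the 19454 fibroblast peaks, 10081 (51.8%) were distal. Chondrocyte H3K27ac was found at 6030 of these, called shared peaks below, and 4051 (40.2%) were fibroblast-only. The 1482 with H3K4me2 were 36.6% of the fibroblast-only distal peaks (35.1 to 38.1), and 2569 had none. H3K4me2 was at 87.4% of shared distal peaks, at 97.5% of fibroblast promoter peaks and at 89.2% of 424 fibroblast promoter peaks without chondrocyte H3K27ac. The H3K4me2 list covered 92.2 Mb, or 3.50% of these chromosomes. Fibroblast-only promoters thus carried the mark far more often than fibroblast-only distal sites.

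The regions were weak to moderate fibroblast peaks. Their median score was 67.1, against 63.2 for the fibroblast-only peaks without H3K4me2 and 91.7 for shared peaks, and their median width was 543 bp, against 495 and 929.5 bp. Only 9.92% of them scored above the median of the fibroblast list, against 6.77% and 39.0%. When distal peaks were ordered by score and divided into 5 classes of equal size, they made up 17.9, 19.6, 18.4, 13.5 and 4.07% from the lowest to the highest, whereas shared peaks rose from 41.2 to 90.6%. Within the fibroblast-only distal peaks alone, the share with H3K4me2 was higher in each successive class: 30.8, 31.9, 35.3, 39.1 and 45.8%. The lowest value (27.7 to 34.1) and the highest (42.3 to 49.3) did not overlap in their intervals. Peak width differed between the same classes, and its part in the overlap was not tested.

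**Figure D1:**
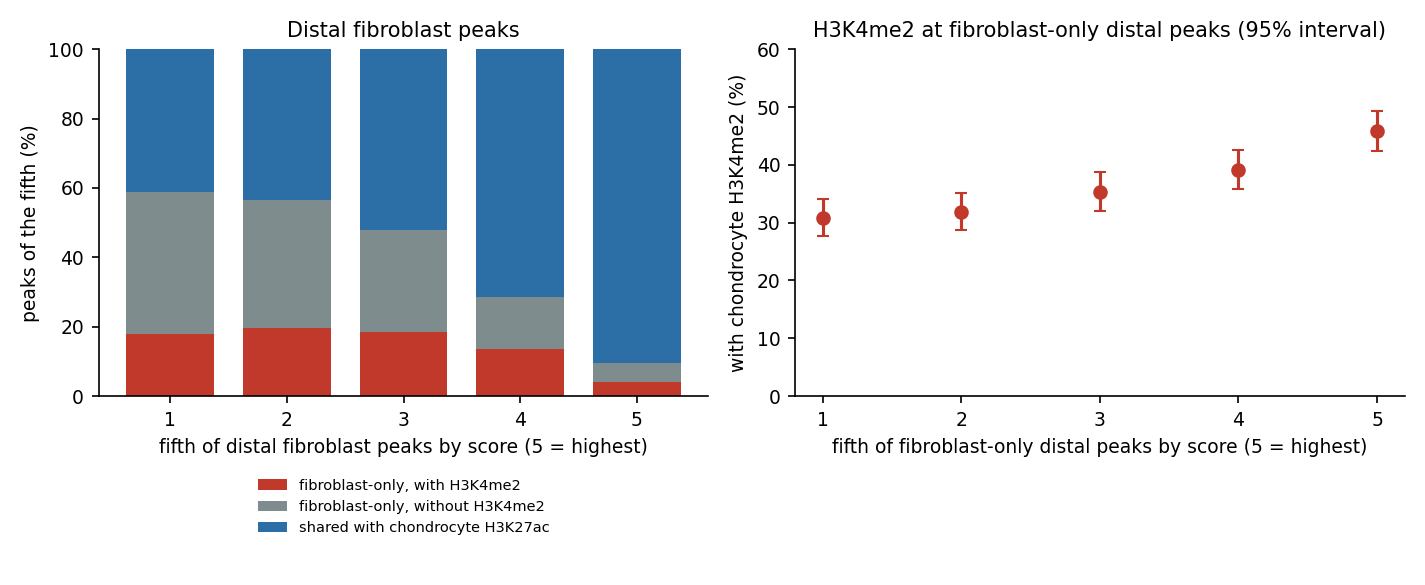
Left, share (%) of distal fibroblast peaks in 3 classes for each of 5 classes of the fibroblast score. Right, share (%) of fibroblast-only distal peaks that overlapped chondrocyte H3K4me2 in 5 such classes, with exact 95% intervals. The red class falls to 4.07% in the strongest class, where shared peaks reach 90.6%, while H3K4me2 among fibroblast-only peaks rises from 30.8 to 45.8%.

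The choice needed only 1 bp of overlap, but H3K4me2 usually lay on most of the peak. The median fibroblast peak was covered over 94.9% of its length, 82.5% were covered over more than 50% and 45.7% wholly. The midpoints of the H3K27ac and H3K4me2 peaks were a median of 247 bp apart. The H3K4me2 peaks themselves ranked in the middle of their list, at a median of the top 50.4%, against the top 32.4% for those at shared peaks, and were 1064 bp wide against 1836 bp. There were 1444 distinct H3K4me2 peaks, because 76 regions lay in pairs on 38 of them. Of all regions, in such pairs or not, 10.4% lay on an H3K4me2 peak that overlapped chondrocyte H3K27ac outside the fibroblast peak.

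The nearest chondrocyte H3K27ac peak was a median of 18.4 kb away, much as for the fibroblast-only peaks without H3K4me2 (19.1 kb), and 23.3% had none within 50 kb. At the short end the classes differed: 11.7% (10.1 to 13.5) lay under 1 kb from chondrocyte H3K27ac, against 5.64% (4.78 to 6.61). The regions nearest to each limit of the choice were as follows. The peaks by Gm9991, Trpv2 and Pnp were 1013, 1055 and 1059 bp from a TSS, and those left out by H1foo, Gucy2e and Lrrc4 were 957, 922 and 917 bp away. The peaks by Wdsub1, Gm10293 and Sec61g were 1, 6 and 7 bp from chondrocyte H3K27ac, and those by Dact1, C1qtnf7 and Znhit6 were left out for an overlap of 2, 5 and 7 bp. The peaks by Habp2, Ndufs4 and Pappa overlapped H3K4me2 by 1, 3 and 3 bp, and those by 2610203C20Rik, Pdpk1 and Pcdh18 missed it by 0, 4 and 7 bp.

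Chondrocyte H3K27ac replicate 2 was not used in the choice and could be set beside it by position relative to the nearest gene. Each peak within 100 kb of a TSS was placed at the same signed distance from that gene's TSS in GRCm38, and a replicate 2 peak within 1 kb was counted. Of 895 regions that could be placed, 40 (4.47%, 3.21 to 6.04) had one. This compares with 16 of 1402 (1.14%, 0.654 to 1.85) fibroblast-only peaks without H3K4me2 and 2175 of 4078 (53.3%) shared peaks. Of the 40, 28 came from the 152 regions under 3 kb from a chondrocyte peak of the other lists (18.4%), and 12 from the 743 farther away (1.62%, 0.837 to 2.80). Of peaks without H3K4me2 at 3 kb or more, 7 of 1242 had one (0.564%, 0.227 to 1.16), and these 2 intervals overlapped. The 2 strongest of these 12 in fibroblasts were by Edem1 and Garnl3, with scores of 164.86 and 115.42. Differences between the builds in sequence and in the annotated TSS limit this placement. Even of shared peaks that overlapped replicate 1, only 62.8% had a replicate 2 peak, so the shares here may be too low. With genes of equal length in both builds this share was 74.2%. It was then 62.2% for all shared peaks and 4.53% for the regions.

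The midpoints lay a median of 45.1 kb (41.8 to 50.4) from the nearest protein-coding TSS, with quartiles at 19.9 and 105 kb. Fibroblast-only peaks without H3K4me2 were at 52.1 kb (48.8 to 55.7) and shared peaks at 33.6 kb (32.3 to 35.0). Of the regions, 11.5% lay under 10 kb from a TSS, 40.9% from 10 to 50 kb, 21.5% from 50 to 100 kb, 24.4% from 100 to 500 kb and 1.69% beyond. Those over 100 kb were 26.1% (23.9 to 28.4), between the 31.9% (30.1 to 33.7) of fibroblast-only peaks without H3K4me2 and the 19.7% (18.7 to 20.8) of shared peaks. The distance classes therefore placed the H3K4me2-marked sites between the other classes at long range, whereas the medians of the fibroblast-only classes had overlapping intervals.

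**Figure D2:**
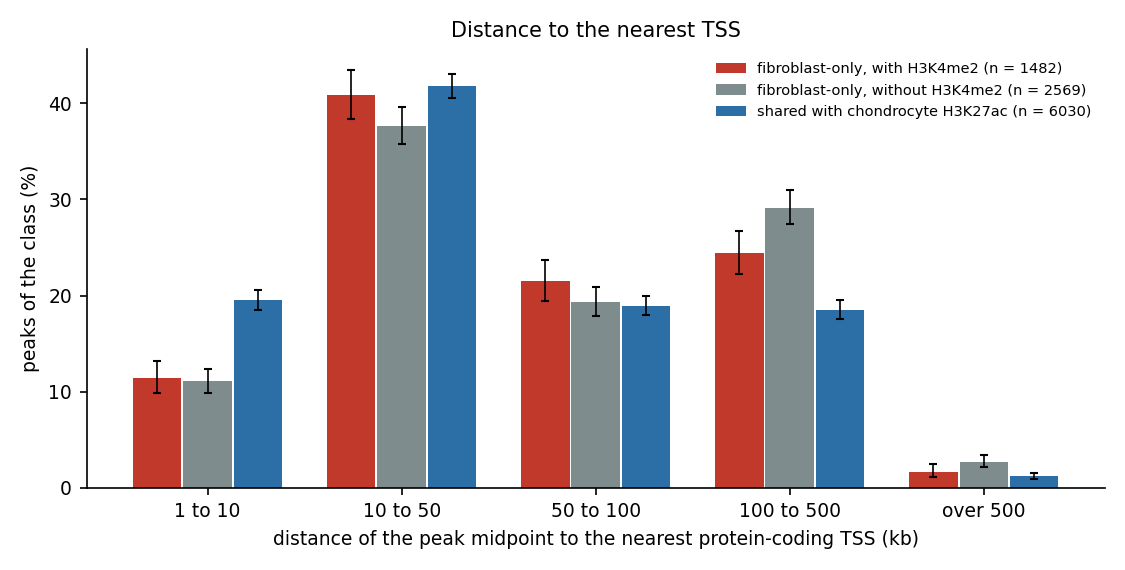
Share (%) of each class of distal fibroblast peaks by distance of the midpoint to the nearest protein-coding TSS (kb), with exact 95% intervals. Fibroblast-only peaks with H3K4me2 (red) had 26.1% beyond 100 kb, against 31.9% without H3K4me2 (grey) and 19.7% of shared peaks (blue).

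By midpoint, 50.1% were intergenic, 41.3% (38.8 to 43.9) were in introns of protein-coding genes, 4.72% in exons and 3.91% in other genes. Shared peaks were in introns at 45.0% and in exons at 7.55%. Only 27.6% lay in an intron of the gene whose TSS was nearest, so that many intronic sites had a neighbour as nearest gene. Upstream of the nearest TSS lay 42.3%. The closest were 1.26 kb from Pnp, 1.29 kb from Rgn and 1.31 kb from Trpv2. The farthest were 1404 kb upstream of Zeb2, 1058 kb upstream of Flrt3 and 1025 kb downstream of Fam19a2, all 3 with H3K4me2 over 63.3% or more of their length.

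In base composition the regions stood well apart from the other fibroblast-only sites. At least 10 CpG were found in the central 300 bases of 205 of the 1482 (13.8%), against 68 of 2569 without H3K4me2 (2.65%), 24.3% of shared peaks and 2.11% of 25554 windows taken every 100 kb of the genome. RefSeq promoters of GRCm38.p6 of the same length reached 43.5%. The median content of G and C was 49.0%, against 46.3, 50.7 and 41.7%. CpG also rose with the H3K4me2 score: in 3 classes of equal size, 3.44% (2.02 to 5.45) of the lowest, 8.10% of the middle and 30.0% (25.9 to 34.2) of the highest had 10 or more. By fibroblast score the same shares were 11.3, 11.9 and 18.2%. A CpG-rich group with strong H3K4me2 was therefore present among the sites.

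**Figure D3:**
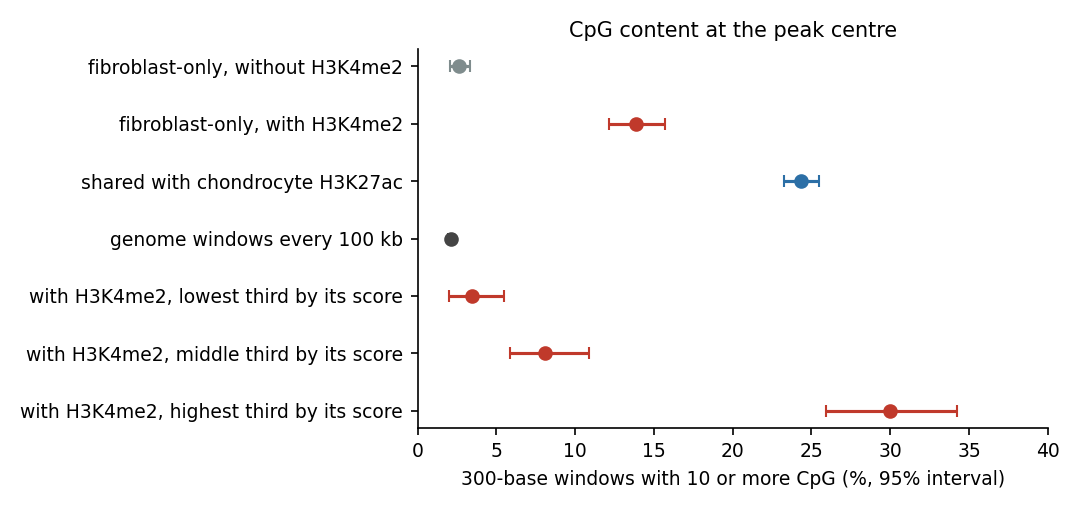
Share (%) of 300-base windows at the peak centre with 10 or more CpG, with exact 95% intervals, for 3 classes of distal fibroblast peaks, for genome windows, and for the H3K4me2-marked sites in 3 classes of the H3K4me2 score. The highest class (30.0%) lies far above the lowest (3.44%), and their intervals do not overlap.

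Some of these CpG-rich sites lay near starts of transcripts that the choice did not look at. Within 1 kb of an annotated start of any transcript, other than the gene-level TSS, lay 123 regions (8.30%), 87 of them within 1 kb of another start of a protein-coding gene. Of the 123, 46.3% had 10 or more CpG, against 10.9% of the others, and their H3K4me2 ranked higher, at a median of the top 30.6% against 51.4%. An annotated start was near 57 of the 205 CpG-rich sites (27.8%). The richest was in an intron of Cacna1d, a calcium channel gene, with 58 CpG and H3K4me2 in the top 1.13%, at chr14:31166646-31167108. CpG-rich sites without a near start included one 7.25 kb upstream of Nanos3 (53 CpG) and one 290 kb upstream of E2f7 (52 CpG, fibroblast score 161.5).

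Short motifs of factors known from mesenchymal cells were counted on both strands in the same windows. The AP-1 motif TGACTCA was in 8.70% of the regions (7.32 to 10.3), in 8.84% of fibroblast-only peaks without H3K4me2, in 9.57% of shared peaks, in 4.72% of genome windows and in 5.20% of RefSeq promoters. The E-box CAGCTG was in 20.3%, against 19.1, 19.8, 10.6 and 16.3%. Both were thus more frequent than in genome windows, and the intervals of the 3 classes overlapped. The TEAD motif GGAATG (16.5%, genome windows 15.9%), the RUNX motif TGTGGT (20.2%, 19.7%) and the E-box CAGATG (25.3%, 22.0%) were near or somewhat above the genome share. The SOX motif AACAAT (12.9%, 20.9%) and the homeodomain motif TAATTA (5.40%, 10.3%) were below it, as were those of shared peaks (10.8 and 4.83%). The full palindrome of NFI factors was in 0 of 1482, which allows a share of up to 0.249%. CAGCTG and TAATTA read the same on both strands, and none of these motifs contains another. Base composition differed between the peaks and the genome windows, and its part in these shares was not tested.

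The regions had 1216 nearest genes, or 5.48% of 22208 protein-coding genes. A single region was nearest to 1014 of them, 2 to 159 and 3 or more to 43. Of the 1216 genes, 557 (45.8%) were also the nearest gene of a shared peak, which is 15.4% of the 3625 genes of shared peaks. Another view is that 428 (35.2%) also had a fibroblast-only peak without H3K4me2, and 496 (40.8%) had no other distal fibroblast peak. The nearest gene is a matter of position and was not shown to be the target.

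Promoters of the 1216 genes were marked more often than those of all genes in every list. Replicate 2 was counted only for genes placed in GRCm38: 1002 of the 1216 and 18089 of all genes. On those 18089 genes replicate 1 marked 44.2%, so the shares of the 2 replicates given here are not on the same genes. Of the 496 genes described below, 403 were placed. H3K27ac was at 55.3% (52.4 to 58.1) of them in fibroblasts, and at 47.4 and 48.5% in chondrocyte replicates 1 and 2, 57.8% in WT chondrocytes and 53.2% in those with the deletion, against 44.7, 41.7, 43.1, 47.2 and 44.4% of all genes. H3K4me2 in chondrocytes was at 76.6%, against 62.7%. The genes of fibroblast-only peaks without H3K4me2 had much the same shares, 56.2% in fibroblasts, 47.5% in replicate 1, 49.9% in replicate 2, 57.1% in WT, 52.3% with the deletion and 74.1% for H3K4me2. Those of shared peaks had higher H3K27ac shares, from 53.3 to 63.1%. For the 496 genes with no other distal fibroblast peak, replicate 1 (41.5%) and replicate 2 (43.2%) marked about the share of all genes, and the intervals in fibroblasts (48.2%, 43.7 to 52.7), WT (51.6%, 47.1 to 56.1) and the deletion (46.8%, 42.3 to 51.3) included the value of all genes, whereas H3K4me2 was at 72.8% (68.6 to 76.7). A similar set was the 1022 genes of peaks without H3K4me2 that had no shared peak, though these could have a region. Their H3K4me2 share was 72.1% (69.3 to 74.8), with 42.4% in replicate 1, 44.0% in replicate 2 and 52.0% (48.8 to 55.1) in fibroblasts. In fibroblasts and in no chondrocyte list on mm9 were 40 promoters of the 1216 genes (3.29%, 2.36 to 4.45), against 1.68% of all genes, 4.38% of the genes of fibroblast-only peaks without H3K4me2 and 1.96% of the genes of shared peaks. The promoter was acetylated in both cell types at 52.0% of the 1216 genes and in neither at 37.3%, against 43.1 and 49.95% of all genes and 51.8 and 37.2% of the genes of fibroblast-only peaks without H3K4me2.

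**Figure D4:**
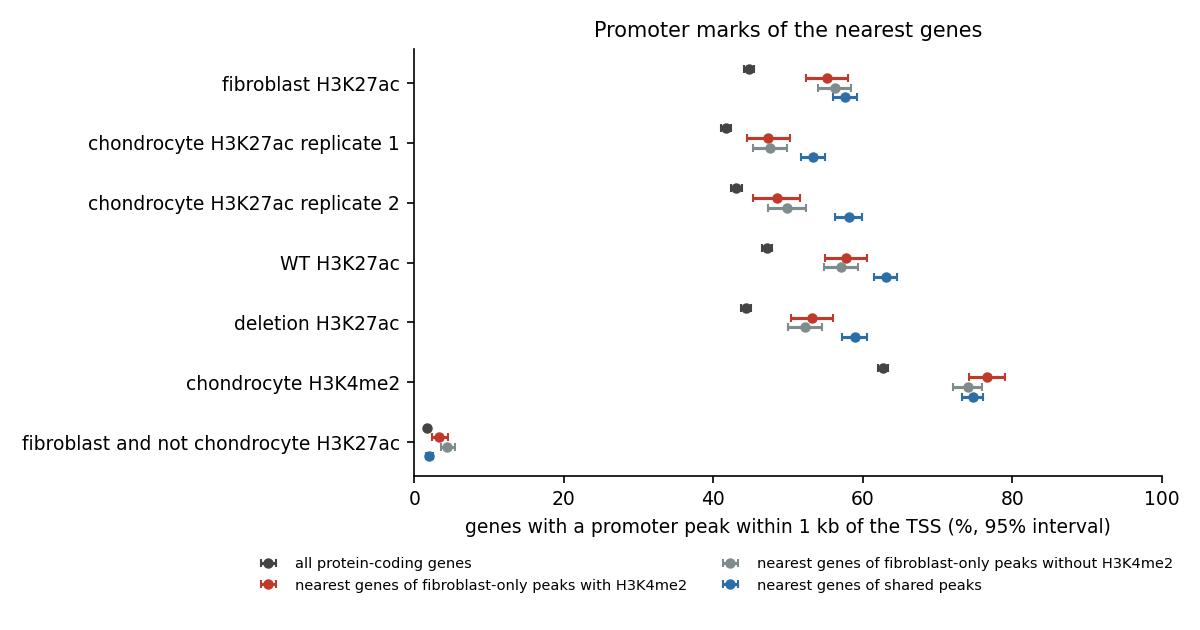
Share (%) of genes with a peak within 1 kb of the TSS in each list, with exact 95% intervals, for all protein-coding genes and for the nearest genes of 3 classes of distal fibroblast peaks. All 3 classes lie above all genes in each of the 7 rows, and the H3K4me2-marked sites (red) are at 3.29% for promoters marked in fibroblasts only. Replicate 2 is shown only for genes placed in GRCm38.

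The 40 genes with a fibroblast-only promoter held 56 of the regions. Chondrocyte H3K4me2 was also on 34 of the 40 promoters (85.0%), much as on 298 of the 332 other fibroblast-only promoters (89.8%). Replicate 2 marked 0 of the 34 promoters that could be placed in GRCm38, which allows a share of up to 10.3%, and 13 of 283 of the others. Of the dermal and mesenchymal transcription factors listed for this tissue, Tbx15 and Osr2 were among the 40 genes. Tbx15, a T-box factor of dorsal dermis, had a site 6.06 kb upstream, in an intron of Wars2. Osr2, an odd-skipped factor of mesenchyme, had sites 26.9 kb upstream and 30.6 kb downstream, with fibroblast scores of 70.25 and 82. H3K4me2 covered 9.56% of the upstream site (top 90.9%) and 100% of the downstream site (top 15.1%). Others of the 40 that were in no list, Zic1, Irx2, Zfp536, Dll1, Gdnf, Angpt2 and Igfbp3, were picked after their values were seen. Zic1, a zinc-finger factor of dorsal mesoderm and neural tissue, had the strong site printed above, 15.7 kb upstream. Irx2 had a site 10.8 kb away with a score of 156.63, and Zfp536 had 3, from 2.60 to 449 kb away. Signalling genes among the 40 included Sfrp2, a secreted Wnt antagonist, with 3 sites up to 314 kb away, and Inhbb of the activin system. Further ones were the guidance receptors Robo2 and Plxna4, the Notch ligand Dll1, the growth factor Gdnf with 2 sites, Angpt2 and Igfbp3. H3K4me2 covered 6.40% of the Robo2 site, 15.2% of the Dll1 site and 8.32, 49.9 and 100% of the Sfrp2 sites. It covered 90.8% or more of the other sites of these signalling genes. The Igfbp3 site and 1 Gdnf site lay 0.137 and 0.358 kb from chondrocyte H3K27ac, and the others 5.93 kb or more. The choice of these 40 genes and of the sites fixed the absence of H3K27ac in the chondrocyte lists on mm9, but not H3K4me2 at the promoters.

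Gene lists for these tissues were then counted, against the 5.48% of all genes with a region. Of 52 dermal and mesenchymal transcription factors, 15 (28.8%) had one, with 23 regions in all. The stretch of genome for which a gene is the nearest moved with these counts: its median was 47.9 kb for all genes, 162 kb for the 1216 genes and 284 kb for these factors. Per Mb of that stretch, regions numbered 0.562 over all genes and 1.21 for the factors, and the part of the stretch in the counts was not tested. Twist2, a basic helix-loop-helix factor of the dermis, had the highest fibroblast score of all the regions, 283.98, in the top 14.0% of the fibroblast list. That peak, at chr1:93653578-93655107 and 43.7 kb upstream of the TSS, was covered by H3K4me2 over 90.0%, and the nearest chondrocyte H3K27ac was 42.1 kb away. The others were mostly weak peaks. En1, which marks a lineage of dorsal dermal fibroblasts, had a site 5.39 kb upstream with a score of 57.54. Twist1 had one 258 kb downstream, in an intron of Hdac9 (65.39), Tcf4 one 146 kb upstream (139.91, H3K4me2 in the top 2.19%), and Osr1, a relative of Osr2, 2 at 114 and 205 kb upstream (53.88 and 51.02). Single sites were at Ebf1, Foxp1, Gli2, Nfia, Tbx18 and Tead1, with scores from 50.67 to 69.87, and Nfib had 2, both in its introns. The Gli2 and Ebf1 sites lay 0.235 and 0.269 kb from chondrocyte H3K27ac, and the other sites of this list 1.19 kb or more.

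Of 53 TGF-beta and BMP signalling genes, 15 (28.3%) had 21 regions, at 1.60 per Mb. Receptors included Tgfbr1, the type I receptor of TGF-beta, with sites 59.4 and 40.7 kb upstream inside Col15a1 (52.69 and 128.05), Tgfbr2, its type II partner, with one 633 kb upstream in an intron of Rbms3 (129.89), and Acvr2a, an activin receptor, with 3 from 274 to 990 kb upstream. The extracellular proteins Ltbp1, which stores latent TGF-beta in the matrix, and Ltbp2 had 2 sites and 1 site, and the BMP antagonist Grem1 had 1, in an intron of the neighbouring formin gene Fmn1. Within the cell, Smad1, which carries BMP signals, had 1, and the inhibitory Smad6 and Smad7 had 1 and 2. Inhba, Inhbb, Id2, Tgif1 and Thsd4 also had sites.

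Of 53 Wnt signalling genes, 13 (24.5%) had 20 regions, at 2.06 per Mb. Ligands were Wnt5a (57.0 kb upstream), Wnt11 and Wnt2b. Receptors were Fzd1, Fzd5, Fzd7, Ror1 and Ror2, a receptor of Wnt5a with 3 sites within 24.0 kb of the TSS. Of the Ror2 sites 2 were neighbours on 1 H3K4me2 peak, as were the 2 sites of Wnt11. Sfrp2 and Dkk1 inhibit the pathway outside the cell and Nkd1 within it. Ctnnb1, which encodes beta-catenin, and its partner Tcf7l2 completed the list, with 1 and 2 sites. The Ctnnb1 site, 1 Fzd1 site and the Wnt5a site lay 0.079, 0.190 and 0.205 kb from chondrocyte H3K27ac. The other sites of this list lay 2.16 kb or more away. Of the Wnt promoters 50 of 53 carried chondrocyte H3K4me2, and of the TGF-beta and BMP promoters 49 of 53. The mark was also on 44 of the 46 promoters of adhesion and guidance genes, and on 62.7% of all promoters.

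Of 46 adhesion and guidance genes, 10 (21.7%) had 14 regions, at 0.471 per Mb, below the value over all genes, with a median stretch of 362 kb. Slit3, a guidance ligand, had 3, of which one 34.8 kb inside the gene was 3909 bp wide with a score of 148.74 but was covered by H3K4me2 over little of its length. Efnb2 had 3, between 361 and 484 kb away. The Slit3 site 67.0 kb upstream lay 0.255 kb from chondrocyte H3K27ac, and the other sites of this list 3.12 kb or more. Fibroblast matrix and surface genes had 7 of 50 (14.0%) with 8 regions: Pdgfra, a growth factor receptor of mesenchyme (9.11 kb upstream, 91.76, H3K4me2 in the top 5.39%), Tnxb (2 sites, the stronger at 211.11), Col3a1, Col12a1, Col4a1, Col4a2 and Eln. A fibroblast-only peak without H3K4me2 was at 25 of these 50 genes and a shared peak at 29. The same counts were 21 and 28 of the 52 dermal factors, 13 and 22 of the 53 TGF-beta and BMP genes, 12 and 21 of the 53 Wnt genes and 20 and 26 of the 46 adhesion genes. Over all 22208 protein-coding genes they were 1896 and 3625. Per Mb of stretch, fibroblast-only peaks without H3K4me2 numbered 0.973 over all genes and 2.59 for the dermal factors. They numbered 5.33 for the matrix and surface genes, 1.60 for TGF-beta and BMP, 2.47 for Wnt and 1.11 for adhesion genes. Shared peaks numbered 2.28 over all genes, and 4.01, 9.97, 5.12, 3.91 and 1.51 for these lists in the same order. Of AP-1 and immediate early genes 4 of 27 had a region (Batf3, Ier2, Jun, Klf6), and of cytoskeleton genes 2 of 32 (Cald1, Lpp). From chondrocyte H3K27ac the Cald1 site lay 0.007 kb, the Ier2 sites 0.133 and 0.174 kb and the Klf6 site 0.228 kb. Those of Batf3, Jun and Lpp lay 24.3 kb or more away. The Cald1 site and 1 Ier2 site also had a replicate 2 peak.

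Chondrocyte genes had the lowest share of the lists with any region, 1 of 32 (3.13%): Runx3, a runt factor, with 1 weak peak 53.7 kb upstream (58.70), at 0.141 per Mb. Of the marker lists of other cells, keratinocyte genes had 3 of 16 (Epcam, Grhl2, Trp63) with 4 regions, although none of the 16 promoters was marked in fibroblasts or in the chondrocyte H3K27ac lists on mm9. The Grhl2 and Trp63 sites were fairly strong in fibroblasts, with scores of 140.51 and 137.17. Chondrocyte H3K4me2 ranked in the top 5.25% and covered 92.6% of the Grhl2 site. At Trp63 it ranked in the top 97.8% and covered 23.0%. Whether these sites came from epidermal cells in the skin digest was not tested. Endothelial genes had 2 of 14 (Erg, Kdr), melanocyte and Schwann cell genes 3 of 16 (Dct, Foxd3, Mitf), muscle 1 of 18 (Acta1), immune 1 of 13 (Csf1r), adipocyte 1 of 14 (Zfp423, a preadipocyte factor, with 3 sites) and pericyte 0 of 12. Per Mb of stretch, keratinocyte genes had 3.06 regions, the highest of all lists, followed among these markers by adipocyte (1.63), immune (1.32) and endothelial genes (1.27), each above the 1.21 of the dermal factors, and by melanocyte and Schwann cell (0.821) and muscle genes (0.347). Each of these rests on 1 to 4 regions. The 2 Epcam regions were neighbours on 1 H3K4me2 peak, as were 2 of the 3 Zfp423 regions, so these rates count peaks rather than separate sites.

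Among single genes, Mtx2 had the most regions, 7, from 81.5 to 312 kb downstream of its TSS. Beside them it had 0 shared peaks, 4 fibroblast-only peaks without H3K4me2 and 2 distal chondrocyte H3K27ac peaks without a fibroblast peak. The regions 81.5 and 82.2 kb away were neighbours on 1 H3K4me2 peak. Mtx2 codes for a mitochondrial import protein and borders the HoxD cluster, and the gene desert beyond it is known to hold enhancers of HoxD genes. The sites spanned chr2:74745073-74975877, the strongest having a score of 202.71. All 7 lay 51.1 kb or more from chondrocyte H3K27ac, and their H3K4me2 ranked from the top 3.14% to the top 86.6%. The promoter of Mtx2 was acetylated in both cell types. The Hoxd3, Hoxd8 and Hoxd9 promoters were marked in fibroblasts and in none of the 4 chondrocyte H3K27ac lists, and all 3 carried chondrocyte H3K4me2. They were the only fibroblast-only promoters among 39 Hox genes, against 1.68% of all genes, whereas 10 Hox promoters were marked in chondrocytes and not in fibroblasts, against 5.31%. Of the 39, 0 was the nearest gene of a region and 0 that of a fibroblast-only peak without H3K4me2. Their stretches were short, with a median of 10.3 kb and 0.696 Mb in all. They held 7 shared peaks, or 10.1 per Mb, against 2.28 over all genes. The part of the stretch in these counts was not tested.

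Zeb2, a repressor of epithelial genes, had 6, all 368 to 1404 kb upstream in a stretch of 1943 kb. Zfp36l1, which destabilises mRNAs, had 6 from 98.6 to 377 kb downstream, among 10 fibroblast-only peaks without H3K4me2 and 8 shared peaks. Mpdz, a scaffold of cell junctions, had 5, Prickle1, of planar cell polarity, 5, and 2810055G20Rik 5. AI427809, Snx9, Opa1, Galnt2 and Cav2 had 4 each. Like Mtx2, the genes Zeb2, 2810055G20Rik and Opa1 held neighbouring regions on the same H3K4me2 peak. Cav2, of caveolae, held its 4 within 79.2 kb upstream, with no shared peak and 1 fibroblast-only peak without H3K4me2 in its stretch. All 4 scores were at or under 61.84. Of the genes with 3 each, those with the highest summed fibroblast scores were Insig2, Enc1, Ptges, Slc4a3, Galnt9, Eea1, Bmper, Ksr1 and Slit3. Ptges, which makes prostaglandin E2, had its 3 in its own introns, the nearest 1.83 kb from the TSS and the farthest with a score of 174.12. That nearest site lay 0.843 kb from chondrocyte H3K27ac and also had a replicate 2 peak. Bmper, a BMP-binding protein, had 2 upstream and 1 in an intron.

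Regions rarely lay side by side. When regions with a gap of at most 10 kb were joined, 120 of them (8.10%) were in 59 runs, of which 57 were pairs and 2 held 3 sites, by Enc1 and Adrb1. The Enc1 run, 14.5 kb long and 182 to 195 kb downstream of this actin-binding gene, included a 2589 bp peak with a score of 175.02. The Adrb1 run, by a beta-adrenergic receptor gene with a fibroblast-only promoter, spanned 3.75 kb.

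**Figure D5:**
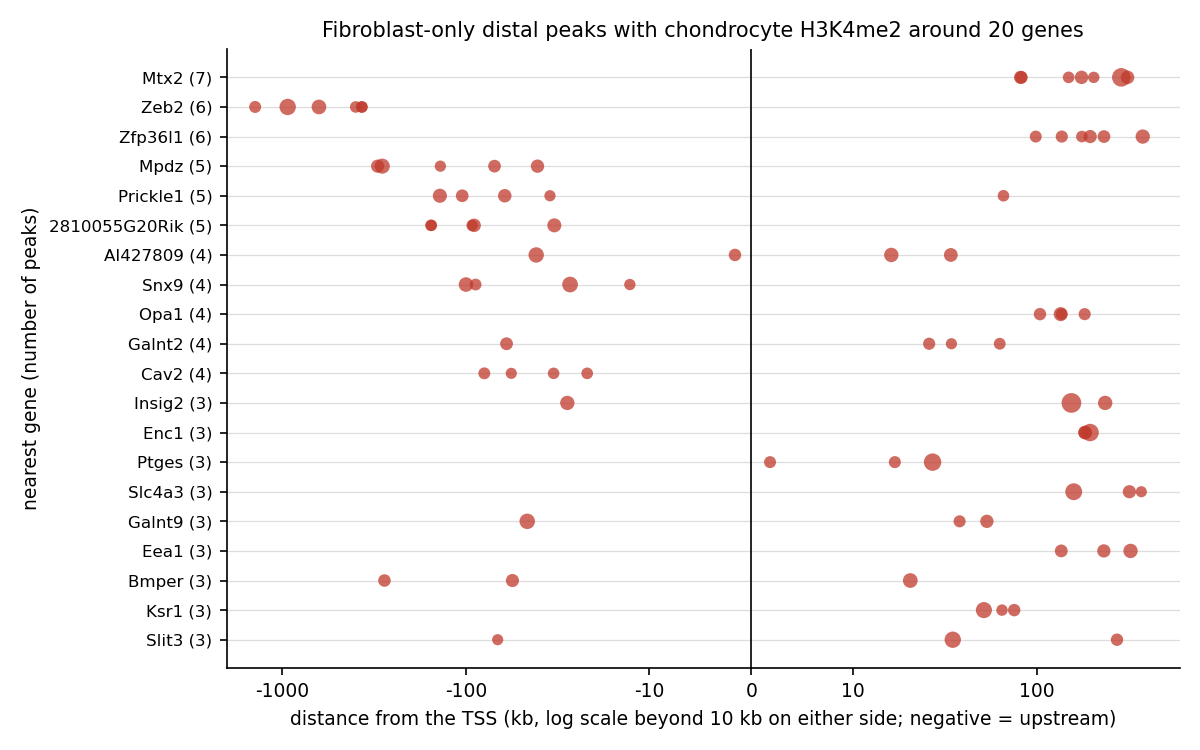
Signed distance (kb) of each H3K4me2-marked fibroblast-only site from the TSS of its nearest gene, for 20 genes with 3 to 7 sites. Point area increases with the fibroblast score. The Mtx2 sites lie 81.5 to 312 kb downstream and the Zeb2 sites 368 to 1404 kb upstream, whereas 1 of the Ptges sites lies within 10 kb of the TSS.

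After Twist2, Insig2 and Zic1, the highest fibroblast scores were those of sites by Akap7 (219.05), Ephb3 (214.94), Zfp385b (213.23), Tnxb (211.11), Vegfa (207.25), Mtx2 (202.71) and Pard6b (199.37). Of these 10, H3K4me2 covered 90.0% or more of Twist2, Insig2, Zic1 and Zfp385b, 76.5% of Tnxb, and 23.1 to 49.4% of Akap7, Ephb3, Vegfa, Mtx2 and Pard6b. The sites with the strongest H3K4me2 were another set: after Olfr1368, Tet1 and Tacr3 came Entpd1, Zfp831, Slc8a1, Sgip1, Ywhaz, Ctsl and Nckap5. Their H3K4me2 ranked in the top 0.0332 to 0.550%, each covered the whole fibroblast peak, and 9 of the 10 fibroblast scores lay between 54.87 and 91.13, with Ywhaz at 162.60. The Olfr1368 and Slc8a1 sites were 0.080 and 0.087 kb from chondrocyte H3K27ac, whereas the Tacr3 site was 581 kb from any. Of the 10 sites with the highest fibroblast scores, Insig2 lay 0.336 kb from such a peak and the others 5.61 kb or more.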

How the data were processed

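Peak lists of H3K27ac and H3K4me2 ChIP-Seq were used as deposited. Per the labels and the study's methods, reads were trimmed with fastp, mapped to mm9 with Bowtie2 2.4.4, and peaks were called per library with MACS2 2.2.4 without pooling. The deposited score is the caller's peak score, starting at 50.0 in the fibroblast, replicate 1 and H3K4me2 lists, and was used only to rank peaks within a list. Those lists have 5 columns and the others the narrowPeak format, so the settings may have differed between them. Replicate 2 had 43.1% of promoters marked with GRCm38 positions and 6.24% with mm9 positions of 18089 genes. No coordinates were converted. In GRCm38 the TSS was the RefSeq gene end of the same symbol, with the strand of the mm9 annotation. Genes were the 22350 protein-coding genes of GENCODE vM1 (mm9), with 22208 symbols. Positions are 1-based. The distance to a TSS was taken from the peak midpoint, and the 1 kb limit from the peak edge.

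Shares have exact Clopper-Pearson 95% intervals and medians order-statistic intervals. No statistical test was run, since no group had more than 2 libraries. The rule was tested on simulated lists with planted peaks, and bedtools 2.31.1 gave the same 1482. The regions, gene lists and motifs were chosen with earlier results of these data known. Named sites were the 10 highest by each score, the extremes of distance, the 3 on each side of each limit, the 20 genes with most sites and list genes. CpG-rich, transcript-start and fibroblast-only-promoter sites, the Hoxd promoters, the Adrb1 run and the replicate 2 sites were named after their values were seen. Alternatives changed the overlaps, scores, TSS set and lists. Scripts ran in Python 3.11.15 with pandas 2.3.3, numpy 2.4.6, pysam 0.24.0, samtools 1.23.1, scipy 1.17.1 and matplotlib 3.10.9.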

Additional observations from a re-analysis of the deposited data

How the results depend on the processing

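No paired analysis was possible because 1 group alone had 2 replicates and no result came from a test. The number of sites was 147 with fibroblast peaks above the median score and 736 with H3K4me2 peaks above theirs, and stayed within 1.5 times of 1482 under the other 10 alternatives. It was 1917 without replicate 1 and 1996 without the WT list. The share of fibroblast-only distal peaks with H3K4me2 was 38.6% when chondrocyte H3K27ac had to overlap 50% of either peak, 29.9% when H3K4me2 had to cover 50% of the peak, 45.8% for fibroblast peaks and 18.2% for H3K4me2 peaks above the median score, 42.1% without replicate 1, 41.5% without the WT list and 35.0% with no chondrocyte H3K27ac within 1 kb. The median distance to the TSS stayed between 43.1 and 48.1 kb in all 12 alternatives and below that of fibroblast-only peaks without H3K4me2 in each. The intronic share was 34.7 and 35.1% with these 2 score limits. The median share covered by H3K4me2 was 100% when coverage of 50% was required or with the stronger H3K4me2 peaks, and 78.5% with the stronger fibroblast peaks. Of the 43 transcription factor, TGF-beta, BMP and Wnt genes with a site, 7 and 27 had one with the stronger fibroblast and H3K4me2 peaks. Replicate 2 matched 3.13% with a tolerance of 500 bp, and 58.6% of nearest-gene promoters were marked in fibroblasts with a window of 2 kb. Alternatives for coverage and gene lists, and genes of equal length, were chosen after seeing the data. The stricter score limits reduce the counts by their construction, and for the other shifts the cause was not tested. Depth is unknown, so a chondrocyte H3K27ac signal under the caller's limit cannot be told apart from none.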
